A study of Cucumis sativus with 4 samples.

Results

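The genes described here were read at very low levels in axillary buds of CsBRC1-RNAi cucumber plants and at higher levels in wild-type buds. They were chosen by their measured values: a gene was included where its normalised signal (read counts scaled to library size, in the form of TMM-scaled CPM) was under 0.5 in both CsBRC1-RNAi libraries and at least 1 in both wild-type libraries. This held for 58 of the 17770 genes in the deposited table. In reads, the limits stand for at most 12 and 15 reads in CsBRC1-RNAi 1 and 2, and for at least 36 and 29 reads in wild type 1 and 2. The genes were thus selected on the difference between the genotypes, which is given below as a description. Counts of these genes past a threshold stand beside the share over all genes and test nothing about them.

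CsBRC1 belongs to the BRANCHED1 group of plant-specific TCP transcription factors. In other flowering plants such as Arabidopsis, genes of this group act inside the axillary bud, the side shoot meristem at the base of a leaf, and keep it dormant. Shade and the hormones auxin and strigolactone act on them to hold growth back, and cytokinin acts the other way. Loss of such a gene gives plants with more branches. In this series the aim was to set buds with lowered CsBRC1 beside normal buds.

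All 4 libraries were made from total RNA of lateral buds of 2-month-old Cucumis sativus plants grown in a greenhouse. Wild type and CsBRC1-RNAi each had 2 libraries. The interfering construct was built on 585 bp of the CsBRC1 coding sequence and was brought by Agrobacterium into the inbred line R1461. Empty PFGC-1008 vector served as the transformation control of the study, but the genotype given for the control libraries is wild type, with no other allele or agent. The sources used here do not give the number of transgenic lines, the promoter of the construct or any pooling of plants. If the libraries of a genotype are not from separate plants, p-values cover only a technical spread.

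The table gives identifiers without gene names, and 0 of the 58 genes (0 of 17770 in all) matched the RefSeq cucumber gene table. No function is therefore assigned to any of them, and the level of CsBRC1 itself, which would check the genotype labels, was not analysed here. Identifiers are printed for the 2 genes with the highest wild-type mean. The others are given by their rank in wild-type mean, from 1 (highest) to 58, and by the chromosome digit in the identifier.

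Reads recovered per library ran from 26912976 to 32385236, and a single read was worth a signal of 0.028 to 0.0392. The replicate libraries were distinct, with a chi-square of their reads per degree of freedom of 135 in wild type and 89.4 in CsBRC1-RNAi. On the log2(signal + 1) scale at most 2705 genes separated wild type 1 from a CsBRC1-RNAi library by 2-fold or more, and at least 4239 separated wild type 2, so results on the 58 genes are also given without single libraries where that moves them.

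The 58 genes were weakly expressed even in wild type, which the fixed limit in CsBRC1-RNAi favours. Their mean wild-type signal had a median of 1.97, with quartiles of 1.45 and 2.41, where the median over the whole table was 23.5. It was under 10 in 57 of the 58 genes, at least 3 in 10 genes and under 2 in 30. In wild type 1 the signal ran from 1.01 to 9.79 with a median of 1.68, and in wild type 2 from 1.06 to 44.0 with a median of 1.98. In reads, the median gene had 60 in wild type 1 and 56 in wild type 2.

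In CsBRC1-RNAi the genes were low but mostly still detected. The signal ran from 0 to 0.471 in CsBRC1-RNAi 1, with a median of 0.196, and from 0 to 0.493 in CsBRC1-RNAi 2, with a median of 0.263. A total of 50 genes had more than 3 reads in the CsBRC1-RNAi libraries together and 31 had more than 10. A further 7 genes had 1 to 3 reads, and 1 gene had none. The name "switched off" thus describes few of them at this depth. The CsBRC1-RNAi mean was a median of 8.83% of the wild-type mean (quartiles 4.85% and 20.4%), and 33.5% in the gene where it was highest.

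**Figure D1:**
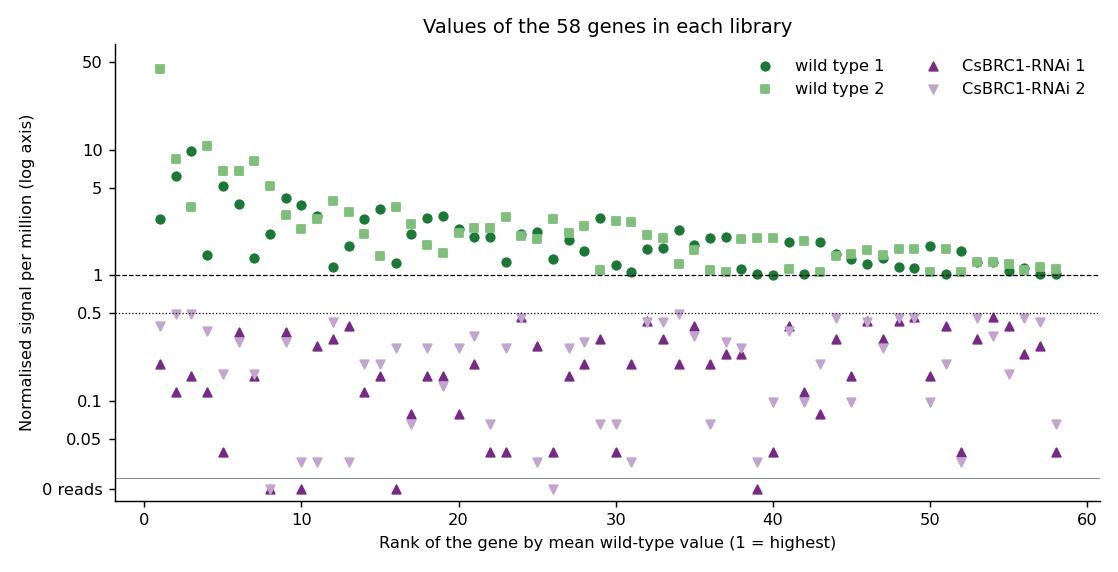
Normalised signal (log axis) of each of the 58 genes in the 4 libraries, in order of mean wild-type signal. Each point is 1 library, points on the lowest line are genes with 0 reads, and the dashed and dotted lines are the limits of 1 and 0.5 that chose the genes. Wild-type points lie mostly between 1 and 5, and the first gene stands out through wild type 2, at 44.0.

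Summed over the 58 genes, the signal was 122 and 189 in wild type 1 and 2 and 12.2 and 13.9 in CsBRC1-RNAi 1 and 2. The highest gene alone held 23.3% of the sum in wild type 2 and 2.3% of that in wild type 1. Without it the sums were 119, 145, 12.0 and 13.5. In whole buds, fewer cells that express a gene and less of its RNA per cell cannot be told apart.

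Csa1G051720, on chromosome 1, had the highest wild-type mean. Its signal was 2.80 (100 reads) in wild type 1 and 44.0 (1242 reads) in wild type 2, against 0.196 (5 reads) and 0.394 (12 reads) in CsBRC1-RNAi 1 and 2. The groups did not overlap, but the wild-type libraries lay 15.7-fold apart and gave a mean of 23.4 ± 29.1 (SD, n = 2) beside 0.295 ± 0.140 in CsBRC1-RNAi. Taken over pooled reads, the gene was 69.0-fold lower in CsBRC1-RNAi, with an exact 95% interval of 42.9 to 119 that covers counting error only. On the log2(signal + 1) scale the fitted change was -3.34 ± 1.11 (SE). It was -1.56 without wild type 2 and -5.12 without wild type 1, so its size depended on which wild-type library was kept.

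Csa7G017710, on chromosome 7, was the second highest, and its wild-type libraries were much closer together. In wild type the signal was 6.15 (220 reads) and 8.47 (239 reads), and in both CsBRC1-RNAi libraries it was far lower, at 0.118 (3 reads) and 0.493 (15 reads). The means were 7.31 ± 1.64 and 0.305 ± 0.265 (SD, n = 2). Pooled reads were 22.3-fold lower in CsBRC1-RNAi, with an exact 95% interval of 13.9 to 37.9. The fitted log2 change was -2.67 ± 0.30 (SE), and from -2.88 to -2.46 with a library left out.

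The next genes by level showed both patterns. The third, on chromosome 7, was higher in wild type 1, with a signal of 9.79 and 3.51 in wild type 1 and 2 and 0.157 and 0.493 in CsBRC1-RNAi 1 and 2. The fourth, also on chromosome 7, was higher in wild type 2, with 1.45 and 10.7 against 0.118 and 0.361 in CsBRC1-RNAi. The fifth, on chromosome 6, had similar wild-type values, with 5.20 and 6.84 against 0.0392 and 0.164 in CsBRC1-RNAi. It held 186 and 193 wild-type reads against 1 and 5 CsBRC1-RNAi reads.

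The 8 genes with the fewest CsBRC1-RNAi reads were not the 8 most expressed in wild type. The eighth gene, on chromosome 1, was the one with no read in either CsBRC1-RNAi library. Its wild-type signal was 2.13 (76 reads) and 5.14 (145 reads). That was 64.4-fold above a floor of 3 reads over both CsBRC1-RNAi libraries, the floor used here for a count of 0. The exact 95% interval of the change in pooled reads reached down to 51.9-fold. The tenth gene, on chromosome 5, had 131 and 66 wild-type reads against 0 and 1 CsBRC1-RNAi reads, a ratio of 172 with an exact 95% interval from 30.5 to 6835. The other 6 lay at ranks 22, 26, 30, 39, 52 and 58 and held 69 to 140 wild-type reads against 1 to 3 CsBRC1-RNAi reads. At rank 58 the ratio was 20.1 with an interval of 6.6 to 99.9, so counting error alone gives its size a wide range.

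Within wild type, the libraries differed on these genes by a median of 1.57-fold, with quartiles of 1.15 and 1.95, and at least 2-fold in 13 of the 58 genes (22.4%). That was the case in 9.27% of the 16982 genes with both wild-type values of at least 1. Among the 3354 other such genes between the lowest and the second highest of the 58 in wild-type mean, it was the case in 14.6%, and the median difference was 1.35-fold. Wild type 2 was the higher library in 34 of the 58 genes (58.6%), against 45.1% of those other genes. A gene with both values of at least 1 and a mean under 1.5 cannot be 2-fold apart, and 19 of the 58 lay there. The exact 95% Poisson intervals of the wild-type libraries overlapped in 35 of the 58 genes and did not in 23. The same count over other genes is not given here, so nothing is read from it. With 1 library on each side these shares are a description and were not tested.

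The 13 genes at least 2-fold apart were mostly high in wild type 2. This was so for 10 of them, and wild type 1 was higher in 3. The direction among other genes at least 2-fold apart is not given here, so this lean is not set against them. The 3 genes at least 4-fold apart were all higher in wild type 2: the first (15.7-fold), the fourth (7.38-fold) and the seventh (1.37 against 8.19, 5.97-fold). Across the 58 genes the log2 signals in wild type 1 and 2 had a Pearson correlation of 0.34 (Spearman 0.26), and of 0.33 without the highest gene. The points share their libraries and the lower limit of 1, and the range of levels is narrow, so the correlation only describes this set.

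**Figure D2:**
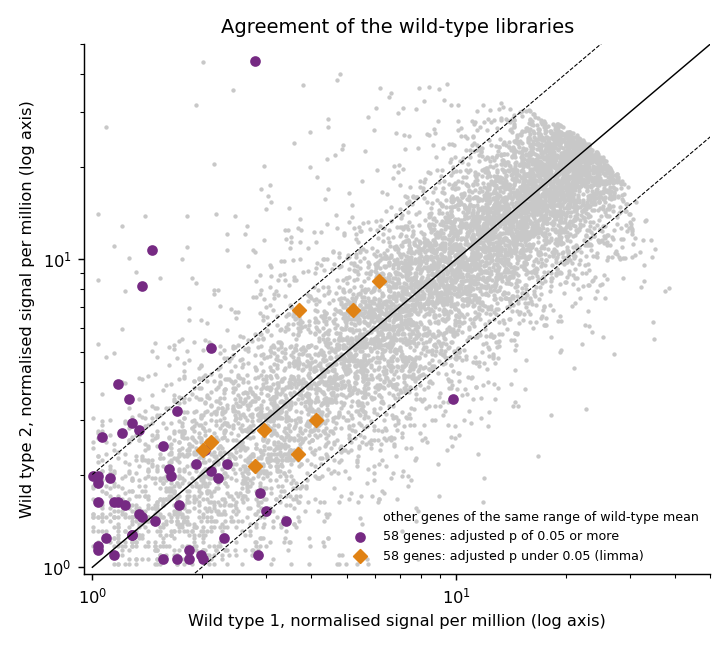
Signal in wild type 1 (x, log axis) against wild type 2 (y, log axis), 1 point per gene. Coloured points are the 58 genes, split by limma's adjusted p, grey points are other genes in the same range of wild-type mean with both values of at least 1, the solid line marks equal values and the dashed lines 2-fold differences. The 3 genes far above the upper dashed line have 1.37 to 2.80 in wild type 1 and 8.19 to 44.0 in wild type 2.

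The genes lay at the lower end of expression. Of the 223 genes with both wild-type values of at least 1 and a wild-type mean under 1.5, 19 (8.52%) were among the 58. The share was 2.84% (11 of 388) for means from 1.5 to under 2 and 2.57% (18 of 700) from 2 to under 3. It was 0.372% (4 of 1076) from 3 to under 5, 0.241% (5 of 2074) from 5 to under 10, and 0.00799% (1 of 12521) from 10 up. The share of genes whose CsBRC1-RNAi mean was under 25% of the wild-type mean was 4.48% in the lowest of these classes and 1.47% in the highest.

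**Figure D3:**
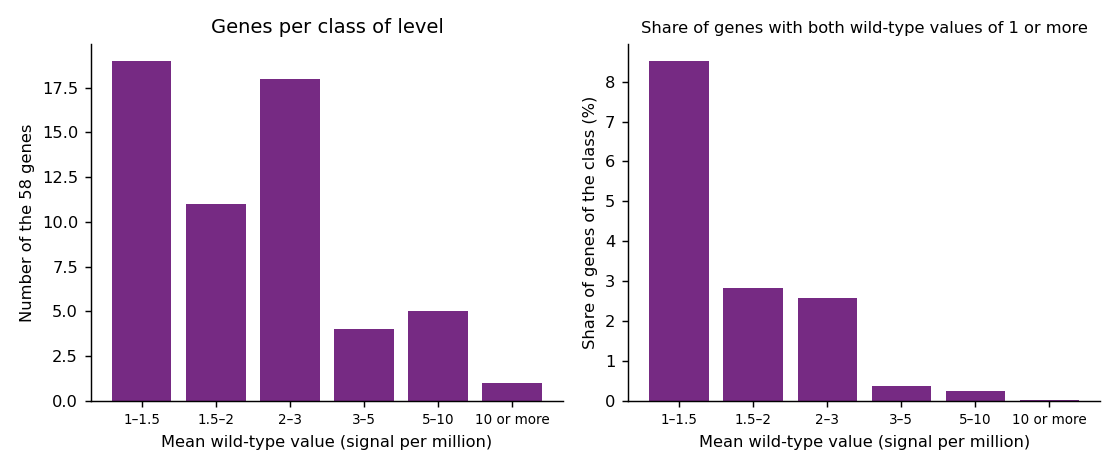
Number of the 58 genes (left) and their share of all genes with both wild-type values of at least 1 (right, in percent), by class of mean wild-type signal. The lowest class holds 19 genes and 8.52% of its genes, and the highest holds 1 gene. The fixed CsBRC1-RNAi limit favours the low classes.

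Many of the genes lay near a limit. In 15 genes the higher CsBRC1-RNAi signal was between 0.4 and 0.5, and 18 genes with both wild-type values of at least 1 fell just outside, between 0.5 and 0.6. The highest value inside was 0.493, shared by 3 genes, and the lowest outside was 0.526. On the wild-type side, 15 genes had a lower value under 1.1. The lowest inside was 1.01 and the highest outside was 0.979. The table lists only genes with at least 1 CPM, taken on its own totals, in 2 or more libraries, so it holds few genes that are low in both genotypes. Only 66 of its genes were under 0.5 in both CsBRC1-RNAi libraries. Of the 8 that were not among the 58, 5 reached 1 in wild type 2 alone, 2 in wild type 1 alone and 1 in neither.

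The same limits set between single libraries show how many genes replicates of a genotype separate. Between the wild-type libraries, 59 genes were at least 1 in wild type 1 and under 0.5 in wild type 2, and 75 the other way. Between the CsBRC1-RNAi libraries the counts were 96 genes low in CsBRC1-RNAi 1 and 18 low in CsBRC1-RNAi 2. For a wild-type library at 1 or more and a CsBRC1-RNAi library under 0.5, the counts were 172 and 190 genes with CsBRC1-RNAi 1 and 101 and 100 with CsBRC1-RNAi 2. The 58 genes are those common to all 4 of these last pairs. With only CsBRC1-RNAi 1 as the low library, 151 genes met the limits, and with only CsBRC1-RNAi 2, 94 did.

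In the fit over 17726 genes, all 58 genes had a negative log2 fold change, as the rule requires. The median was -1.26, from -3.34 to -0.64, beside -0.01 over all genes tested. These sizes are on the log2(signal + 1) scale, which shrinks the change of genes near a signal of 1. The wild-type values lay above the CsBRC1-RNAi values in all 58 by choice, and in 33.7% of the genes tested. By limma, 9 of the 58 had an adjusted p under 0.05, where 1.41% of all genes were called lower. Because the same contrast chose the genes, nothing is read from that difference.

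The 9 called genes had wild-type means from 2.21 to 7.31 (median 3) and wild-type libraries at most 1.85-fold apart (median 1.32-fold). The 49 others ran from 1.08 to 23.4 in mean (median 1.77) and up to 15.7-fold apart (median 1.63-fold), and included the highest gene. The test divides a change by the spread within genotypes, which favours genes with close libraries. Nothing is therefore read from these differences. Of the 58, edgeR called 11 (background 0.942%) and DESeq2 called 47 (background 9.29%) on recovered reads. By limma 20 were called without wild type 1 (background 8.74%), and 0 without wild type 2, CsBRC1-RNAi 1 or CsBRC1-RNAi 2, where the backgrounds were 0%, 0.0113% and 0%. At an unadjusted p under 0.05, limma had 41, 37, 43 and 43 of the 58 in these 4 fits, with backgrounds of 19.8%, 11.7%, 6.1% and 7.4%, and 56 of the 58 with all libraries, with a background of 14.8%. The other tools were not run on 3 libraries.

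By the digit in their identifiers, the 58 genes came from every chromosome. Chromosome 1 held 12 of them (20.7%, where it holds 14.5% of the listed genes), and chromosomes 4 and 7 held 9 each (15.5%, against 12.1% and 9.79%). Chromosomes 3, 5 and 6 held 7 each (12.1%, against 21.0%, 13.2% and 16.6%), chromosome 2 held 6, and 1 gene carried UN in place of a digit. As a share of a chromosome's listed genes, they ran from 0.187% on chromosome 3 to 0.517% on chromosome 7. The running number in the identifier was taken as the order along the chromosome, by the naming convention and without an assembly. The 57 placed genes then divided into 14, 23 and 20 over the first, middle and last of 3 equal stretches of the listed gene order. These counts were not tested.

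**Figure D4:**
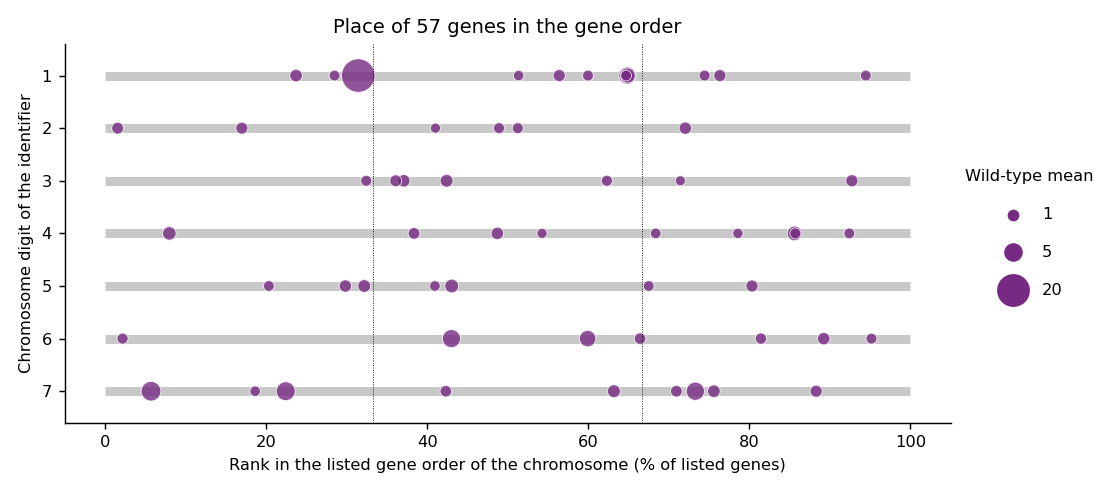
Place of the 57 genes with a chromosome digit, as the rank in that chromosome's listed gene order (x, percent of listed genes), for each of 7 chromosomes (y). Each dot is 1 gene, its area grows with the mean wild-type signal, and dotted lines divide the order into 3 equal stretches. The genes are spread over all chromosomes, with the largest dot, of mean 23.4, on chromosome 1.

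Between consecutive ones on a chromosome lay a median of 202.5 steps in the listed order. A single pair was adjacent: the sixth and eighth genes, on chromosome 1, whose identifier numbers differ by 10. The sixth had 3.69 and 6.84 in wild type against 0.353 and 0.296, and the eighth 2.13 and 5.14 against 0 and 0. Both were higher in wild type 2. The listed gene after this pair was level between genotypes, with 9.15 and 8.54 against 9.93 and 7.72. The forty-ninth gene lay 4 steps before the sixth, with 1.15 and 1.63 against 0.471 and 0.46, and none of the 3 listed genes between them was among the 58.

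A pair on chromosome 4, the ninth and the thirty-ninth gene, had a single listed gene between them. They lay within a run of 4 listed genes whose CsBRC1-RNAi mean was 1.09% to 14.9% of their wild-type mean. By sign alone the stretch of lower genes held 7, from 3 steps before the ninth to 3 after. The ninth had 4.11 and 3.01 in wild type against 0.353 and 0.296 in CsBRC1-RNAi. The thirty-ninth had 1.03 and 1.98 against 0 and 0.0329. The gene between them was abundant, at 143 and 119 against 18.9 and 18.3. The gene after the thirty-ninth was more abundant still, at 255 and 210 against 30.3 and 39.1. These abundant neighbours were 7.03-fold and 6.70-fold lower, with adjusted p-values by limma of 0.018 for each, and of 0.0601 to 0.0941 without wild type 2 or either CsBRC1-RNAi library. The listed genes on either side of the run kept 62.6% and 203% of their wild-type mean. The sources used here do not say whether counting used strand, so reads of weak genes that overlap abundant ones on the other strand cannot be told apart from their own.

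Some genes right next to the 58 in the listed order were also lower in CsBRC1-RNAi. Of 111 tested genes adjacent to the 58 and not among them, 19 (17.1%) had a log2 fold change under -1, as had 6.53% of all genes tested. At 2 to 5 steps the share was between 5.36% and 8.11%. Changes over 1 were found in 11.7% of the adjacent genes and 10.4% of all genes. The median log2 fold change of the adjacent genes was -0.08, near that of all genes (-0.01). By limma 5 of the 111 (4.5%) were called lower and 4 (3.6%) higher, beside 1.41% and 2.2% of all genes tested. These shares are a description, and whether adjacent genes overlap or are related in sequence was not tested.

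The 19 adjacent genes covered a wide range of levels, with wild-type means from 1.94 to 628 and a median of 20.3. The most reduced stood next to the thirty-fourth gene on chromosome 6, with 56.4 and 78.9 in wild type against 8.20 and 7.98 in CsBRC1-RNAi, a log2 fold change of -2.90. Next to the fourteenth gene, on chromosome 3, lay one that itself nearly met the limits, with 4.39 and 2.83 against 0.235 and 0.591. Both neighbours of the nineteenth gene, on chromosome 4, were also low, with 2.29 and 1.59 against 0.235 and 0.526 on one side and 8.81 and 7.26 against 3.81 and 2.69 on the other. The neighbours of Csa7G017710 were lower by less, at 27.2 and 42.1 against 19.3 and 22.1, and 65.0 and 72.8 against 52.3 and 48.9.

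The nineteenth gene lay in the longest unbroken stretch of listed genes with a negative log2 fold change around any of the 57 placed genes, 19 genes from 6 steps before it to 12 after. The median stretch was 3 genes, and 12 of the 57 had no lower gene on either side. It was the 1 gene of the 57 with all 10 neighbours within 5 steps lower in CsBRC1-RNAi. Those 3, 4 and 5 steps after it were called lower by limma with all 4 libraries, with adjusted p-values of 0.0284, 0.0265 and 0.0341. As given above, limma's calls moved when a library was left out. The 3 genes had 20.03 and 19.9 against 4.24 and 2.63, 6.85 and 6.06 against 0.432 and 0.69, and 14.2 and 15.2 against 3.88 and 2.76. Over all genes tested, 50.3% had a negative log2 fold change. This stretch was picked out after its values were seen.

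**Figure D5:**
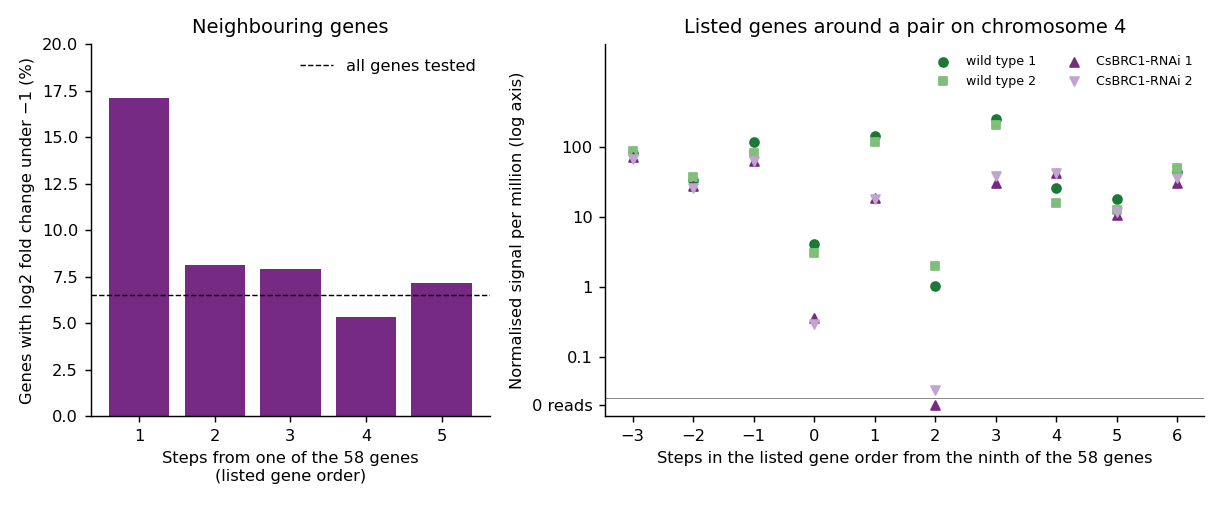
Left, percent of tested genes with a log2 fold change under -1 by distance from the 58 genes in the listed order, with the share over all genes tested as a dashed line: 17.1% at 1 step against 6.53% overall. Right, signal (log axis) in each library for listed genes around the ninth gene (step 0) and the thirty-ninth gene (step 2) on chromosome 4. At steps 0 to 3 the CsBRC1-RNAi mean was 1.09% to 14.9% of the wild-type mean.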

How the data were processed

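The authors deposited a scaled signal for each gene in each library, under the name CPM. Reads were aligned with HISAT and counted with HTSeq, per the submitters' processing notes. The sources used here give no version, genome build, annotation or use of strand. In each column 100% of values were whole multiples of its smallest value above 0 (tolerance 1e-06), which gave whole reads. The effective library sizes equalled those of edgeR's TMM scaling. The members and lists were chosen with earlier results of these data known. Printed identifiers are the 2 members with the highest wild-type mean, and genes singled out by rank were chosen after their values were seen.

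Genotypes were compared by limma 3.58.1 (R 4.3.3, trended prior variance, no block) on log2(signal + 1) for 17726 genes with at least 1 in at least 2 libraries (44 removed, all 58 members kept), with Benjamini-Hochberg adjustment. edgeR 4.0.16 (422 genes called) and DESeq2 1.42.0 were run on recovered reads. Other alternatives were pseudocounts, filters, scaling, the prior, a replicate block, the rule's limits and each library left out. Intervals are exact (Poisson, or binomial for ratios) and cover counting error only. Gene lists by symbol were not analysed here.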

Additional observations from a re-analysis of the deposited data

How the results depend on the processing

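The number of genes chosen depended on the limits. It was 21 with a CsBRC1-RNAi limit of 0.25, 190 with a limit of 1, 8 with at most 3 reads in both CsBRC1-RNAi libraries together and 15 with a wild-type limit of 2. Scaling moved it little: 67 with plain CPM on the table totals and 58 with median-of-ratios scaling, each holding all 58. With a library left out it was 60 to 151. The 9 members called by limma became 3 with a mean signal of at least 2 (7 members tested), 47 with DESeq2 and 0 to 20 with a library left out. Over all genes limma called 640 (390 higher, 250 lower), against 422 with edgeR (255 and 167), 3917 with DESeq2 (2270 and 1647) and 0 to 3531 with a library left out. With the replicate block the counts were 17 members, all lower, and 1561 of 17726 genes (972 higher and 589 lower). Replicate 1 minus replicate 2 differences in both genotypes had a correlation across genes of 0.0376, and no label ties the numbers to a shared batch. The cause of these shifts was not tested. The 13 members at least 2-fold apart in wild type were 5 by the ratio of signal + 1 and 30 at a limit of 1.5-fold. Neighbouring pairs were 1 when adjacent and 2 with identifier numbers at most 50 apart. The log2 fold changes of both named genes kept their direction under every alternative run, from -6.3 to -1.56 in Csa1G051720 and from -4.55 to -2.01 in Csa7G017710. Under the other planned settings for pseudocount, filter, scaling and prior, 7 to 13 members were called. Over all genes these settings called 199 to 250 lower. With a mean signal of at least 2, limma called 228 of 16670 genes lower. Depth limits the ratios of genes with few CsBRC1-RNAi reads.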

Other observations

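The opposite set, under 0.5 in both wild-type libraries and at least 1 in both CsBRC1-RNAi libraries, held 113 genes, 0.661% of the 17086 genes with both CsBRC1-RNAi values of at least 1. The 58 genes were 0.342% of the 16982 genes with both wild-type values of at least 1. The opposite set reached higher levels where its genes were read, with a median mean signal of 4.01 in CsBRC1-RNAi, beside 1.97 in wild type for the 58. A mean of at least 5 was found in 45 of the 113 (39.8%) and in 6 of the 58 (10.3%). The libraries of the higher genotype were at least 2-fold apart in 43 of the 113 (38.1%) and in 13 of the 58 (22.4%). The first share is of the CsBRC1-RNAi libraries and the second of the wild-type libraries. The sets also differ in level, so these shares cannot be compared directly. The same contrast chose both sets, so these differences were not tested.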
